A study of Mus musculus with 27 samples.

Results

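Organoids of the colon were compared with organoids of the jejunum, the long stretch of small intestine between duodenum and ileum, all grown from mice given ethanol. The comparison takes 6 of the series' 27 libraries by their labels, 2 ethanol colon organoid libraries (D1 and D2) against 4 ethanol jejunum organoid libraries (D1 to D4). All libraries came from C57BL/6 mice, an inbred laboratory strain, with no transgene named. Per the labels, the ethanol mice received 15% ethanol for 8 weeks and the control mice received water. Organoids are 3-dimensional cultures that crypt stem cells of the intestinal epithelium form in a gel, and the labels cite a published crypt culture protocol for both segments. The culture medium, the passage and any ethanol in the medium are not given in the sources used here. The labels number donors from D1 in each group, and do not say whether a colon and a jejunum culture with one number came from the same mouse. Nothing in the labels says how many mice stand behind a culture, and p-values measure the spread between these libraries. RNA was counted with QuantSeq, which reads a tag at the 3′ end of polyadenylated RNA. The groups set beside this comparison were ethanol whole tissue (4 colon and 4 jejunum libraries) and control organoids (2 colon and 4 jejunum libraries).

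The epithelium of the jejunum digests and absorbs sugar, protein and fat behind long villi, and its crypts hold Paneth cells that secrete antimicrobial peptides. The colon has no villi and normally no Paneth cells, takes up salt, water and bacterial fatty acids, and is coated by mucus from goblet cells. Stem cells of each segment are known to carry a memory of their position into culture, through transcription factors of the GATA, HNF4, CDX and Hox families.

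The 2 colon libraries were less alike than the 4 jejunum libraries. Total counts were 4595625 and 2601537 in colon and 3934204 to 6500472 in jejunum. The share of Rn45s, the ribosomal RNA precursor, was 38.1 and 48.3% against 21.1 to 30.2%. With 2 against 4 libraries the smallest two-sided exact permutation p is 0.133, and this was the value for that share. Genes with at least 1 count numbered 15383 and 13542 against 12881 to 13310. The biological coefficient of variation was 0.499 within colon (n = 2) and 0.147 within jejunum (n = 4). Epithelial identity was present in every library, where Epcam, Cdh1, Vil1, Krt8, Krt18 and Krt19 summed to 5391 and 5693 CPM in colon and 3101 to 3552 CPM in jejunum.

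**Figure D1:**
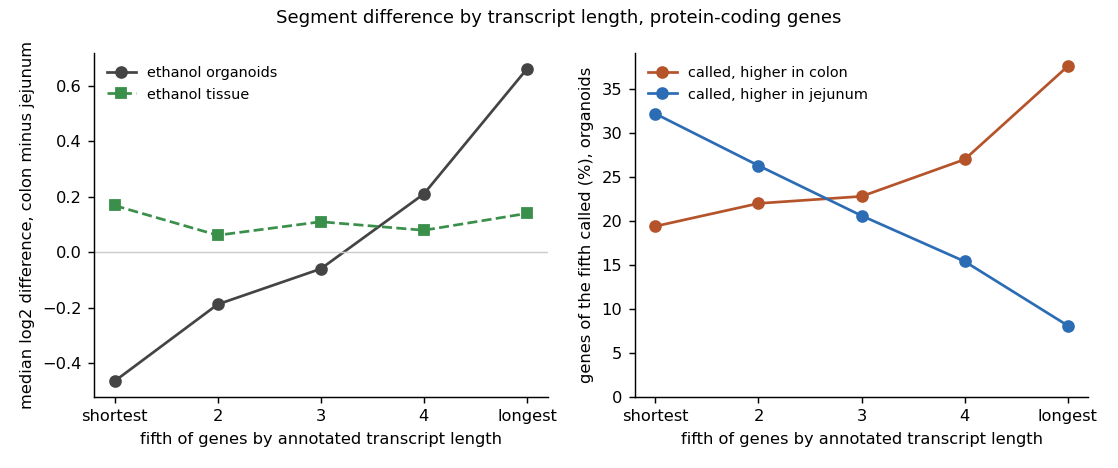
Left, the median log2 difference between colon and jejunum in ethanol organoids and in ethanol tissue, over quintiles of protein-coding genes ordered by annotated transcript length. Right, the percent of each quintile called in the organoid comparison. In organoids the median ran from -0.46 in the shortest quintile to 0.66 in the longest, and in tissue it stayed between 0.06 and 0.17.

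Transcript length moved with the organoid difference across the whole transcriptome. Over 11734 protein-coding genes, quintiles by annotated transcript length had median log2 differences of -0.46, -0.19, -0.06, 0.21 and 0.66 from shortest to longest. Ethanol tissue showed 0.17, 0.06, 0.11, 0.08 and 0.14. The cytosolic ribosomal protein genes, which are short, were picked as a group after their values were seen. Of 77 tested, 59 were called higher in jejunum and 0 higher in colon, with a median of -1.76 (-1.47 less the length-quintile median). Their sum was 17632 and 10931 CPM in colon and 38009 to 44426 CPM in jejunum. In tissue the same genes had a median of 1.02, with 46 higher in colon and 6 higher in jejunum. The part of library composition in the gene groups described next was not tested. Where a list is described by its organoid median, that median is also given after subtracting the median of each gene's own length quintile.

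Colon and jejunum organoids differed widely. Of 12922 genes tested, 5928 (45.9%) were called at an adjusted p under 0.05, 3302 (25.6%) higher in colon and 2626 (20.3%) higher in jejunum. The shares higher in colon and higher in jejunum are the background for the list counts below. The median log2 difference over all genes tested was 0.07. Each log2 difference here is colon minus jejunum ± standard error of the fit, so that a positive value means higher in colon. Against a 2-fold difference, 1981 genes (15.3%) were higher in colon and 1227 (9.50%) higher in jejunum. Colon and jejunum values did not overlap in 67.7% of the genes, 34.1% with colon higher and 33.6% with jejunum higher, so that separate ranges alone say little. In bulk libraries, fewer cells of a type and less RNA per cell cannot be told apart. Without colon D1 4740 genes were called, and without colon D2 4163.

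**Figure D2:**
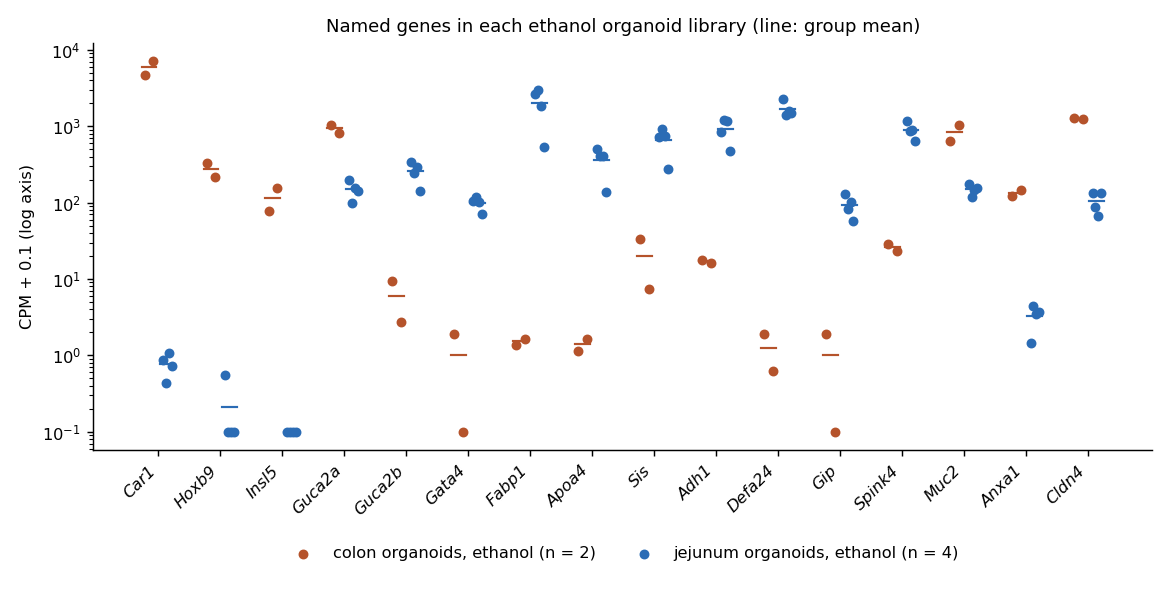
CPM + 0.1 on a log axis in each ethanol organoid library for 16 genes, with colon libraries in red, jejunum libraries in blue and a line at each group mean. No colon value of any gene shown lies within the jejunum range, and Car1, Hoxb9 and Insl5 lie highest above it.

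The largest difference was in Car1, carbonic anhydrase 1 (chr3:14766216-14808368), an enzyme of the mature colon surface. Car1 stood at 4652 and 7072 CPM in colon D1 and D2 and 0.761, 0.330, 0.969 and 0.636 CPM in jejunum D1 to D4. Both colon libraries lay far above every jejunum library, with a log2 difference of 13.07 ± 0.38 (adjusted p = 2.16e-09). Hoxb9, a Hox gene of the posterior body axis (chr11:96271457-96276595), had 329 and 214 CPM in colon D1 and D2 and 0.457, 0, 0 and 0 CPM in jejunum D1 to D4. Its log2 difference was 10.69 ± 0.73 (adjusted p = 9.06e-06).

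The other genes among the 8 with the highest fold were at 0 in all 4 jejunum libraries, so that their fold is a lower bound, computed as if the 4 libraries together had held 3 counts. The colon level in it is the smaller of the mean over libraries and the CPM of their pooled counts, and the converse was done for genes at 0 in colon. Wnt7b, a Wnt ligand, had 299.98 and 43.6 CPM in colon, at least 1230.03-fold higher (adjusted p = 3.35e-05). The colon libraries differed from each other here, D1 lying well above D2. Insl5, a peptide hormone of distal enteroendocrine cells, had 76.9 and 155 CPM, at least 736-fold higher (adjusted p = 0.000181). Ms4a6b, a membrane protein gene known from macrophages and T cells, had 79.7 and 141 CPM, at least 717-fold higher. Tns1, a focal adhesion protein gene, had 61.8 and 32.2 CPM, at least 337-fold higher. Cdh13, an atypical cadherin, had 116 and 2.60 CPM, and its call was lost without colon D1 (adjusted p = 0.221). Gm20745, a predicted gene model, had 17.4 and 95.1 CPM, at least 308-fold higher.

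All of the 8 genes with the lowest fold were at 0 in both colon libraries. Reg3a, an antibacterial lectin, had 200.3, 250.4, 247 and 139 CPM in jejunum, at least 406-fold above colon (adjusted p = 2.64e-05). All 4 jejunum libraries lay within a 2-fold range of each other. Npc1l1, the cholesterol importer of the brush border, had 94.3, 93.5, 91.8 and 54.4 CPM, at least 162-fold (adjusted p = 2.68e-05). Aadac, an arylacetamide deacetylase, had 133, 169, 165 and 97.7 CPM, at least 274-fold. Fbp1, the gluconeogenic fructose bisphosphatase, had 128, 90.7, 62.0 and 29.4 CPM, at least 151-fold, and Nat8, an N-acetyltransferase, 91.2, 75.2, 79.7 and 50.8 CPM, at least 144-fold. Others were Gm21002 and Defa22, at least 399-fold and 158-fold. The defensin genes have near-identical copies that may share reads.

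**Figure D3:**
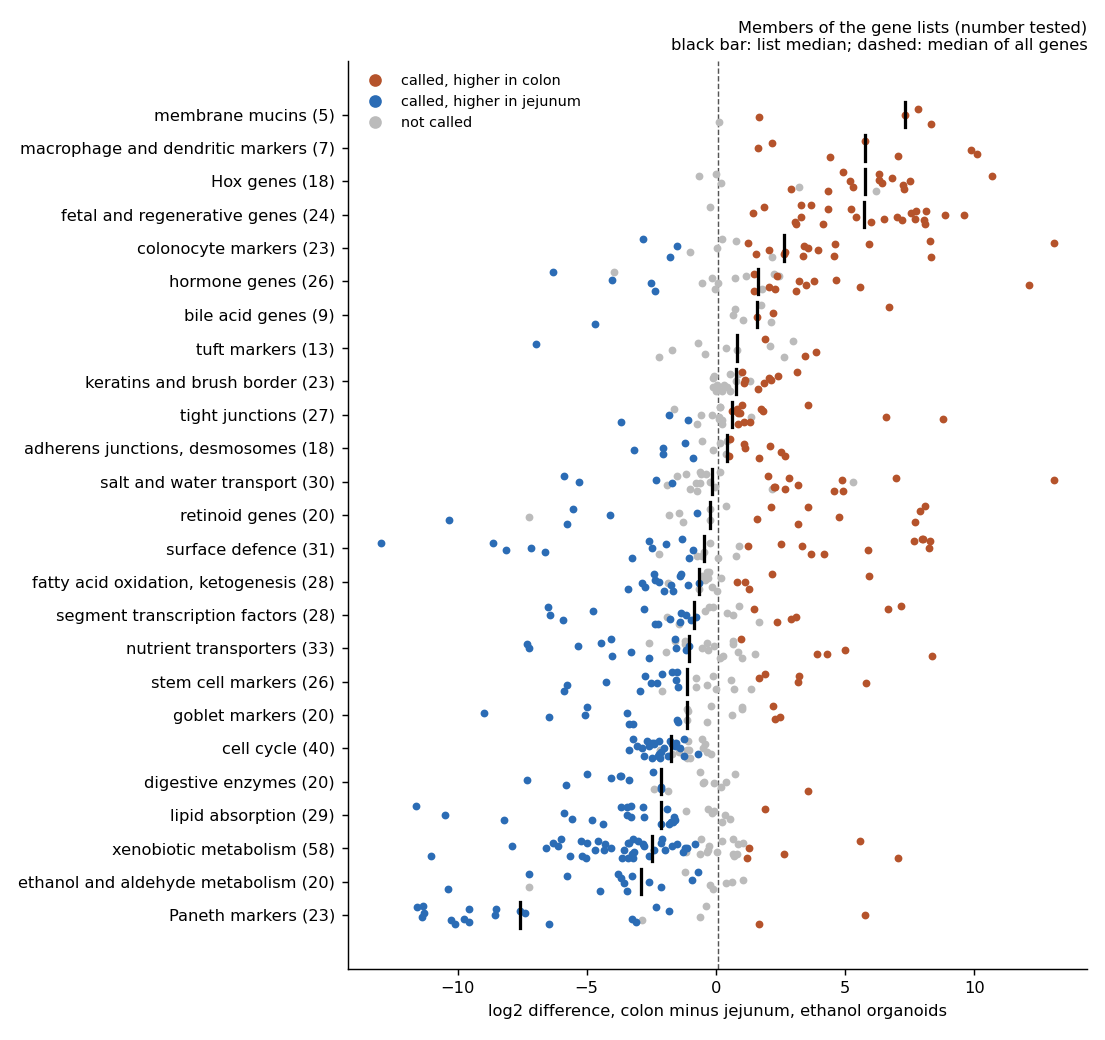
Log2 difference between colon and jejunum in ethanol organoids for each tested member of 25 gene lists, in red where called higher in colon, in blue where called higher in jejunum and in grey where not called. Black bars are list medians and the dashed line is the median of all genes tested, 0.07. The Paneth list lies lowest, with a median of -7.60, and the membrane mucin, macrophage, Hox and fetal or regenerative lists have medians above 5. With genes at 0 in jejunum set to their bound, the membrane mucin median was 4.88 and the Hox median 4.86.

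The segment markers followed the labels, with exceptions. Among 8 small intestinal markers, 7 were called higher in jejunum and none in colon. The exception was Fabp6, the ileal bile acid binding protein, with 12.8 and 0 CPM in colon D1 and D2 and 3.05, 1.15, 3.15 and 9.11 CPM in jejunum D1 to D4. Among 7 colon markers, Car1, Car4 and Lypd8 were called higher in colon. Lypd8 had a log2 difference of 1.24 ± 0.45 (adjusted p = 0.0411). Its call was lost without jejunum D1 (adjusted p = 0.0689), jejunum D2 (adjusted p = 0.074), jejunum D3 (adjusted p = 0.0718) and jejunum D4 (adjusted p = 0.104). Its log2 difference was 1.25 without colon D1 and 1.13 without colon D2. Car4, another carbonic anhydrase of colonocytes, had 74.1 and 101 CPM in colon D1 and D2 and 2.59, 2.14, 4.36 and 5.93 CPM in jejunum D1 to D4 (log2 difference 4.55 ± 1.03, adjusted p = 0.004). Aqp8, a water channel of colonocytes, had 1.28 and 13.0 CPM in colon D1 and D2 and 0, 2.97, 1.70 and 1.06 CPM in jejunum D1 to D4 and was not called (adjusted p = 0.324). Slc26a3, the chloride and bicarbonate exchanger, had 69.2 and 120.03 CPM in colon D1 and D2 and 124, 217, 223 and 191 CPM in jejunum D1 to D4, also not called (adjusted p = 0.283). Hoxb13, a marker of the distal colon, had 0 counts in all 6 libraries.

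Hox genes encode homeodomain factors that are switched on in order along the body axis. The count table lists 39 of them, of which 18 were tested in organoids. Of these, 13 were called higher in colon and 0 higher in jejunum, against 25.6% of all genes called higher in colon. Their median was 5.75 (5.86 less the length-quintile median), or 4.86 with genes at 0 in jejunum set to their bound. A low-count filter keeps a gene that is high in 1 group only, so this median covers the tested genes and not the family. In the HoxB cluster every gene from Hoxb1 to Hoxb9 was called. Hoxb5 had 17.7 and 63.9 CPM in colon D1 and D2 and 0, 0, 0.727 and 0.424 CPM in jejunum D1 to D4 (log2 difference 7.22 ± 1.03) and Hoxb8 11.3 and 27 CPM in colon D1 and D2 and 0, 0, 0.485 and 0.424 CPM in jejunum D1 to D4 (6.42 ± 0.94). Hoxb6 had a log2 difference of 6.82 ± 1.41, Hoxb3 of 6.30 ± 1.14 and Hoxb7 of 4.35 ± 0.86. Only low values underlay Hoxb2, at 1.79 and 0 CPM in colon D1 and D2 and 0, 0, 0 and 0 CPM in jejunum D1 to D4, and its call was lost without colon D1 (adjusted p = 1), jejunum D1 (adjusted p = 0.0747), jejunum D2 (adjusted p = 0.0733), jejunum D3 (adjusted p = 0.0656) and jejunum D4 (adjusted p = 0.069). Hoxb4 lost its call without colon D2 (adjusted p = 0.121), and Hoxc8 without colon D1 (adjusted p = 0.0575). Hoxa5 had the smallest difference of the called members, with 10.3 and 15.6 CPM in colon D1 and D2 and 1.07, 1.15, 1.94 and 2.75 CPM in jejunum D1 to D4 (log2 difference 2.90 ± 0.58, adjusted p = 0.00188).

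Of 28 tested transcription factors of segment identity, 13 were called higher in jejunum and 6 higher in colon, with a median of -0.86 (-0.74 less the length-quintile median). Gata4, the factor that sets jejunal against ileal identity, had 1.79 and 0 CPM in colon D1 and D2 and 106, 118, 103 and 70.5 CPM in jejunum D1 to D4. It was nearly absent from both colon libraries, with a log2 difference of -6.40 ± 0.62 (adjusted p = 1.42e-05). Gata5 (-6.50 ± 0.68), Hnf4g (-4.76 ± 0.42) and Nr1i3, the xenobiotic sensor CAR (-5.91 ± 0.63), were lower in colon as well. Hnf4a, an enterocyte factor of both segments, had 85.4 and 114 CPM in colon D1 and D2 and 364, 314, 348 and 329 CPM in jejunum D1 to D4 (-1.77 ± 0.23, adjusted p = 0.000101).

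The caudal factor Cdx1 had 29.0 and 54.6 CPM in colon D1 and D2 and 200.4, 195, 218 and 235 CPM in jejunum D1 to D4, and its log2 difference was -2.36 ± 0.33 (adjusted p = 0.000159). Cdx2 was closer, at 92.3 and 104 CPM in colon D1 and D2 and 168, 157, 163 and 174 CPM in jejunum D1 to D4 (-0.75 ± 0.17, adjusted p = 0.00449). Higher in colon were Klf4, a factor of differentiating surface cells (3.10 ± 0.39), Klf5, a crypt factor (1.47 ± 0.17), Satb1, a chromatin organiser (6.66 ± 1.25), and Maf, a leucine zipper factor (2.36 ± 0.53).

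Colonocyte genes were mostly higher in colon, 15 of 23 tested against 3 higher in jejunum, with a median of 2.64 (3.11 less the length-quintile median). Ceacam1, an adhesion molecule of the apical surface, had a log2 difference of 3.54 ± 0.34, and Emp1, a membrane protein, one of 3.41 ± 0.34. The 3 members higher in jejunum were Fabp2, an intestinal fatty acid binding protein (-2.83 ± 0.55), Slc16a1, the monocarboxylate transporter (-1.49 ± 0.39), and Hsd11b2, which inactivates glucocorticoids (-1.77 ± 0.47). Slc16a1 lost its call without colon D2 (adjusted p = 0.0737).

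Among 30 tested genes of salt and water transport, 11 were called higher in colon and 4 higher in jejunum. Over all genes the shares were 25.6% and 20.3%. The list median was -0.14 (-0.09 less the length-quintile median). Car2, a cytosolic carbonic anhydrase, had 137 and 156 CPM in colon D1 and D2 and 0.761, 1.98, 1.70 and 0.212 CPM in jejunum D1 to D4 (log2 difference 6.95 ± 0.79). Sgk1, the kinase that relays aldosterone to the sodium channel, had 70.3 and 104 CPM in colon D1 and D2 and 1.83, 4.12, 2.42 and 2.97 CPM in jejunum D1 to D4 (4.92 ± 0.45, adjusted p = 9.25e-06). Lower in colon were Aqp4, a basolateral water channel (-5.86 ± 0.99), Slc12a2, the chloride importer of secreting cells (-1.69 ± 0.21), and Kcnn4, a potassium channel (-2.31 ± 0.54).

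Guanylin and uroguanylin, the peptides that switch on chloride and bicarbonate secretion through guanylate cyclase C, went in opposite directions. Their genes are neighbours on chromosome 4, Guca2a at chr4:119637704-119639471 and Guca2b at chr4:119656607-119658954. Guca2a (guanylin) had 1045 and 818 CPM in colon D1 and D2 and 197, 99.5, 154 and 143 CPM in jejunum D1 to D4. It was higher in both colon libraries, by 2.65 ± 0.38 on the log2 scale (adjusted p = 0.000208). Guca2b (uroguanylin) had 9.23 and 2.60 CPM in colon D1 and D2 and 338, 246, 295 and 143 CPM in jejunum D1 to D4. It was lower in both, with a log2 difference of -5.30 ± 0.59 (adjusted p = 3.78e-05). Ethanol tissue gave 1.5 ± 0.37 for Guca2a (adjusted p = 0.00247) and -5.26 ± 0.37 for Guca2b (adjusted p = 2.9e-09), the same directions in other libraries.

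The promoters of this pair are shown because the genes lie side by side and differ in opposite senses. Each run is 300 bases 5′ to 3′, from 250 before to 50 after the annotated start, from RefSeq on GRCm38.p6, chr4:119637482-119637781 on the plus strand and chr4:119658896-119659195 on the minus strand. Both strands were searched for the GATA motif AGATAA, the HNF4-type motif CAAAGT and the CDX motif TTTATNG, and matches are in capitals.
Guca2a: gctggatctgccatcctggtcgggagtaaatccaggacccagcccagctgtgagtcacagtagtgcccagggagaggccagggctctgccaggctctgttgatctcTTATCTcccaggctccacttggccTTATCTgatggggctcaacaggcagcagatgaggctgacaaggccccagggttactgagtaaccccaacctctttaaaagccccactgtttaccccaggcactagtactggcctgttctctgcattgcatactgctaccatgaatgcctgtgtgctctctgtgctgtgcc
Guca2b: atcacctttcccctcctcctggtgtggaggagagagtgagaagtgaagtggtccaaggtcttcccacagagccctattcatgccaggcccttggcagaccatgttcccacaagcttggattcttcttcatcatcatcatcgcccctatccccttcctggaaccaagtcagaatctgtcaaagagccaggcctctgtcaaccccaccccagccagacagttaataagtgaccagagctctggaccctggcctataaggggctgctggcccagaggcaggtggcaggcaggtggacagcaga
Guca2a held 2 GATA matches, both read on the opposite strand as TTATCT, and Guca2b held no match of any of the 3 motifs. Of all 32851 promoters of this length in the table, 11.2% held AGATAA, 14.4% CAAAGT and 10.9% TTTATNG. Among promoters of genes called higher in jejunum the GATA share was 7.63%, and among those higher in colon 6.83%.

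Digestive enzymes of the brush border were mostly higher in jejunum. Of 20 tested, 10 were called higher in jejunum and 1 higher in colon, with a median of -2.13 (-2.07 less the length-quintile median). Sis, the sucrase-isomaltase, had 33.1 and 7.27 CPM in colon D1 and D2 and 725, 926, 741 and 274 CPM in jejunum D1 to D4 (log2 difference -4.97 ± 0.76, adjusted p = 0.000326). Jejunum D4 was the lowest of its group in Sis, as it was in Slc5a1, Fabp1, Apoa4 and Adh1. Treh, the trehalase, had a log2 difference of -7.33 ± 0.84, Mgam, the maltase-glucoamylase, of -3.68 ± 0.41 and Enpep, an aminopeptidase, of -2.43 ± 0.31. Lct, the lactase, had low values in every library, 0.256 and 0 CPM in colon D1 and D2 and 5.33, 3.30, 3.15 and 0.847 CPM in jejunum D1 to D4, and its call (adjusted p = 0.0307) was lost without colon D1 (adjusted p = 0.0964), colon D2 (adjusted p = 0.126), jejunum D1 (adjusted p = 0.0647), jejunum D2 (adjusted p = 0.053) and jejunum D3 (adjusted p = 0.051). Mep1a, a secreted metalloprotease subunit, was the member higher in colon, with 308 and 221 CPM in colon D1 and D2 and 19.8, 18.8, 31.3 and 21.0 CPM in jejunum D1 to D4 (3.55 ± 0.63).

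Nutrient transporters were split, 12 of 33 tested higher in jejunum and 5 higher in colon, against 20.3% and 25.6% of all genes. Their median was -1.04 (-0.97 less the length-quintile median). Slc5a1, the sodium-glucose cotransporter SGLT1, had 26.4 and 18.7 CPM in colon D1 and D2 and 737, 599, 453 and 231 CPM in jejunum D1 to D4 (log2 difference -4.46 ± 0.71, adjusted p = 0.000411). Slc2a5, the fructose transporter (-4.01 ± 0.58), Slc5a4b, a sodium-linked sugar transporter relative (-7.23 ± 0.71), and Slc1a1, a glutamate transporter (-4.08 ± 0.50), were lower in colon. Slc39a4, the zinc importer ZIP4, had 857 and 548 CPM in colon D1 and D2 and 49.0, 28.7, 30.8 and 32.8 CPM in jejunum D1 to D4 and was higher in colon (4.31 ± 0.34, adjusted p = 4.27e-06). The lactate and short-chain fatty acid cotransporters Slc5a8 (3.90 ± 0.86) and Slc5a12 (at 0 in jejunum, at least 56.5-fold) were also higher in colon. Slc5a8 lost its call without colon D1 (adjusted p = 0.0507).

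Genes of fat absorption were mostly higher in jejunum. Of 29 tested, 21 were called higher in jejunum against a background of 20.3%, and 1 higher in colon. The median was -2.14, or -1.95 less the length-quintile median. Fabp1, the liver-type fatty acid binding protein (chr6:71199827-71205023), had 1.28 and 1.56 CPM in colon D1 and D2 and 2614, 2981, 1859 and 536 CPM in jejunum D1 to D4. Jejunum D4 held the least of the jejunum libraries and still lay far above colon, with a log2 difference of -10.47 ± 1.43 (adjusted p = 0.00015). Apoa4, an apolipoprotein of chylomicrons, had 1.03 and 1.56 CPM in colon D1 and D2 and 499, 409, 409 and 137 CPM in jejunum D1 to D4 (log2 difference -8.19 ± 1.01). Mttp, which loads lipid onto apolipoprotein B, differed by -5.90 ± 0.69, Dgat1, which makes triglyceride, by -1.91 ± 0.19 and Apoa1 by -3.67 ± 0.41. Apob, the structural protein of chylomicrons, did not follow, with 61.5 and 80.5 CPM in colon D1 and D2 and 64.4, 98.3, 100.3 and 56.1 CPM in jejunum D1 to D4 and overlapping ranges (log2 difference -0.17 ± 0.30, adjusted p = 0.675). Scarb1, the HDL receptor, was the member higher in colon (1.89 ± 0.61), but that call was lost without colon D1 (adjusted p = 0.123), colon D2 (adjusted p = 0.066), jejunum D3 (adjusted p = 0.0627) and jejunum D4 (adjusted p = 0.0681).

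The promoter of Fabp1, from RefSeq on GRCm38.p6 (chr6:71199629-71199928, plus strand), is shown because this gene was abundant in jejunum and near 0 in colon. The search for the motifs was as described for the guanylin pair, and the capitals mark matches to TTTATNG on either strand.
Fabp1: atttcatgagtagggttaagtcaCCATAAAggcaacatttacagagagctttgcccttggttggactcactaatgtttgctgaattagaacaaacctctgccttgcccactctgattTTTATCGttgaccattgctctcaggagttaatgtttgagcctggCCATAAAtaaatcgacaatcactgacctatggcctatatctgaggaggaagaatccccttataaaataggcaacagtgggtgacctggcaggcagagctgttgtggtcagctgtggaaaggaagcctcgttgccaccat
Fabp1 held 3 such matches. Of 25 promoters found for 23 genes of the fat absorption list, 28% held TTTATNG, 32.0% CAAAGT and 12% AGATAA. Over all 32851 promoters the shares were 10.9%, 14.4% and 11.2%. Among promoters of genes called higher in jejunum they were 8.21%, 13.5% and 7.63%. Of 24 promoters of the Hox list, 8.33% held TTTATNG, 29.2% CAAAGT and 0% AGATAA. These matches are letters in a window and do not show that a factor was bound.

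Among 9 tested bile acid genes, 3 were called higher in colon and 1 higher in jejunum, against 25.6% and 20.3% of all genes. With so few genes these counts lie near the background. The median in organoids was 1.60 (1.24 less the length-quintile median). In ethanol tissue 2 of 8 tested were called higher in colon and 4 higher in jejunum, with a median of -1.52. Slc10a2, the ileal bile acid importer, had 50.5 and 42.6 CPM in colon D1 and D2 and 0.152, 0.495, 0.485 and 0.636 CPM in jejunum D1 to D4 and was higher in colon (log2 difference 6.69 ± 1.15, adjusted p = 0.00072). Abcc3, a basolateral exporter (1.60 ± 0.24), and Slc51b, a subunit of another (2.22 ± 0.48), were higher too, while Abcc2, an apical exporter, was lower (-4.68 ± 0.91). Slc51b lost its call without colon D1 (adjusted p = 0.0502).

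Genes that handle ethanol and aldehydes were mostly lower in colon organoids. Alcohol dehydrogenases turn ethanol into acetaldehyde, aldehyde dehydrogenases turn acetaldehyde into acetate, and catalase is a side route. Of 20 tested, 13 were called higher in jejunum and 0 higher in colon, with a median of -2.92 (-2.86 less the length-quintile median). The count higher in jejunum was 13 or 14 when any 1 of the 6 libraries was left out. Adh1, the main ethanol-oxidising enzyme, had 17.7 and 16.1 CPM in colon D1 and D2 and 848, 1217, 1172 and 469 CPM in jejunum D1 to D4. The ranges were far apart, with a log2 difference of -5.77 ± 0.92 (adjusted p = 0.000428). Adh6a, a related dehydrogenase, had 0.513 and 0 CPM in colon D1 and D2 and 61.8, 74.7, 56.2 and 28.2 CPM in jejunum D1 to D4 (-7.25 ± 0.79). Adh4, another alcohol dehydrogenase, was at 0 in both colon libraries and had 24.4, 42.4, 47.2 and 26.7 CPM in jejunum, at least 66.7-fold (adjusted p = 2.88e-05).

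Aldh9a1, an aldehyde dehydrogenase of amine breakdown, had 21.5 and 10.9 CPM in colon D1 and D2 and 237, 245, 259 and 196 CPM in jejunum D1 to D4 (-3.81 ± 0.29, adjusted p = 3.24e-06), and Cat, catalase, 67.4 and 72.2 CPM in colon D1 and D2 and 299, 294, 353 and 272 CPM in jejunum D1 to D4 (-2.13 ± 0.20). Aldh1a1, a cytosolic aldehyde dehydrogenase that also makes retinoic acid, had 611 and 521 CPM in colon D1 and D2 and 486, 745, 890.4 and 536 CPM in jejunum D1 to D4 and was not called (adjusted p = 0.816). Aldh2, the mitochondrial enzyme that clears acetaldehyde, had 726 and 362 CPM in colon D1 and D2 and 477, 424, 421 and 354 CPM in jejunum D1 to D4, with overlapping ranges (log2 difference 0.38 ± 0.24, adjusted p = 0.213).

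In ethanol tissue this list was split, 5 of 18 tested higher in colon and 7 higher in jejunum, with a median of -0.49. Tissue Adh1 had 142, 623, 72.7 and 70.1 CPM in colon and 52.3, 127, 63.6 and 36.7 CPM in jejunum (log2 difference 1.70 ± 0.72, adjusted p = 0.0673). The test of organoid against tissue segment difference gave -7.42 ± 1.33 for Adh1 (adjusted p = 0.000132). Over the list, 11 of 20 had a lower segment difference in organoids than in tissue, 2 a higher one, against 16.9% and 23.7% of all 14785 genes in that test. Whole tissue holds other cells than epithelium, and their part was not tested.

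Retinoid genes moved both ways, 8 of 20 tested higher in colon and 5 higher in jejunum, against 25.6% and 20.3% of all genes. The share in jejunum was near the background. Their median was -0.24 (-0.05 less the length-quintile median). Rbp2, the retinol carrier of enterocytes (-5.52 ± 0.88), Rbp7, a related carrier (-4.10 ± 0.43), and Rdh7, a retinol dehydrogenase at 0 in colon (at least 65.6-fold), were higher in jejunum. Aldh1a3, which makes retinoic acid, had 10.5 and 19.7 CPM in colon D1 and D2 and 0, 0.165, 0 and 0 CPM in jejunum D1 to D4 and was higher in colon (7.69 ± 1.01, adjusted p = 0.000114). Rdh10, a retinol dehydrogenase (2.14 ± 0.30), and Rarg, a retinoic acid receptor (3.19 ± 0.57), were higher in colon as well.

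Xenobiotic metabolism had the most genes tested of the lists fixed for this comparison, and by count the most genes higher in jejunum. The share higher in jejunum was larger in the Paneth list (18 of 23) and the fat absorption list (21 of 29). Over all genes it was 20.3%. Of 58 tested genes for cytochromes P450, conjugating enzymes, carboxylesterases and drug exporters, 39 were called higher in jejunum and 5 higher in colon, with a median of -2.49 (-2.33 less the length-quintile median). Gstm3, a glutathione transferase with near-identical relatives, had 4.62 and 1.56 CPM in colon D1 and D2 and 873, 954, 903 and 539 CPM in jejunum D1 to D4 (log2 difference -7.89 ± 0.63, adjusted p = 4.29e-06). Mgst1, a microsomal relative, had 30.3 and 17.1 CPM in colon D1 and D2 and 451, 503, 581 and 438 CPM in jejunum D1 to D4 (-4.35 ± 0.35). Ugt2b35, a glucuronosyltransferase (-3.65 ± 0.41), and Cyp2c65, a cytochrome P450 (-1.71 ± 0.20), were lower in colon. The members higher in colon included Cyp2d34, with 89.2 and 134 CPM in colon D1 and D2 and 0.457, 0.660, 1.45 and 0.847 CPM in jejunum D1 to D4 (7.06 ± 0.70), and Cyp2c55, a colonic cytochrome (2.64 ± 0.47). Sult1a1, a sulfotransferase (5.56 ± 1.44), and Abcb1a, the P-glycoprotein exporter (1.18 ± 0.30), lost their calls without colon D1 (adjusted p = 0.0534) and without colon D1 (adjusted p = 0.0632). Without colon D1 the number higher in colon was 3. In tissue 17 of 54 were higher in colon and 19 higher in jejunum.

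Paneth cells, the granulated cells at the base of small intestinal crypts, gave the list with the lowest median. Of 23 tested markers, 18 were called higher in jejunum and 2 higher in colon. The median was -7.60 (-7.04 less the length-quintile median), or -6.46 with genes at 0 in colon set to their bound. Defa24, an alpha-defensin, had 1.79 and 0.520 CPM in colon D1 and D2 and 2234, 1381, 1567 and 1486 CPM in jejunum D1 to D4 (log2 difference -10.26 ± 0.53, adjusted p = 2.85e-07). Defa17 (-9.54 ± 0.55), Defa3 (-11.34 ± 0.66) and Gm15284, a defensin entry (-10.12 ± 0.74), were also lower, but these genes are near-identical copies and the value of each entry is uncertain. Lyz1, the Paneth lysozyme, had 147 and 27.5 CPM in colon D1 and D2 and 1418, 466, 606 and 538 CPM in jejunum D1 to D4 and was not absent from colon (-3.09 ± 0.69, adjusted p = 0.00364). Mmp7, the protease that matures defensins, had 5.38 and 0 CPM in colon D1 and D2 and 27.3, 9.24, 14.1 and 12.1 CPM in jejunum D1 to D4, and its call was lost without colon D2 (adjusted p = 0.152), jejunum D1 (adjusted p = 0.0923) and jejunum D3 (adjusted p = 0.0599).

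The 2 list members higher in colon are not specific to Paneth cells. Sox9, a crypt factor, had a log2 difference of 1.65 ± 0.27. Lyz2, the lysozyme of macrophages, had 60.8 and 29.6 CPM in colon D1 and D2 and 1.52, 0.495, 0.485 and 0.636 CPM in jejunum D1 to D4 (5.76 ± 0.97), and macrophage markers, given further on, were higher in the same libraries.

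Goblet cell genes did not move together. Of 20 tested, 9 were called higher in jejunum and 3 higher in colon, with a median of -1.12 (-0.98 less the length-quintile median). Muc2, the gel-forming mucin, had 633 and 1023 CPM in colon D1 and D2 and 177, 119.7, 148 and 153 CPM in jejunum D1 to D4 (log2 difference 2.47 ± 0.62), with its call lost without colon D2 (adjusted p = 0.0711). Zg16, a lectin that binds bacteria in mucus, had 912 and 919 CPM in colon D1 and D2 and 233, 148, 202 and 203 CPM in jejunum D1 to D4 (2.22 ± 0.43). Kcnma1, a potassium channel, was also higher in colon (2.27 ± 0.59), a call lost without colon D2 (adjusted p = 0.151). Without colon D2 the number higher in colon fell from 3 to 1.

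The 9 goblet genes higher in jejunum included Spink4, Agr2, Fcgbp and Ang4. Spink4, a protease inhibitor of goblet cells, had 29.0 and 23.4 CPM in colon D1 and D2 and 1179, 857, 901 and 637 CPM in jejunum D1 to D4 (log2 difference -5.08 ± 0.33, adjusted p = 1.26e-06). Agr2, the disulfide isomerase needed for mucin folding, had 23.6 and 17.1 CPM in colon D1 and D2 and 229.6, 224, 196 and 191 CPM in jejunum D1 to D4 (-3.35 ± 0.34), and Fcgbp, a mucus cross-linking protein, 30.8 and 27.5 CPM in colon D1 and D2 and 326, 345, 360.3 and 233 CPM in jejunum D1 to D4 (-3.43 ± 0.46). Ang4, an angiogenin shared with the Paneth list, differed by -6.46 ± 0.85. Reg4, a marker of deep crypt secretory cells, had 865 and 1105 CPM in colon D1 and D2 and 491, 582, 482 and 401 CPM in jejunum D1 to D4 and was not called (adjusted p = 0.196).

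Other mucins, most of them membrane-bound, were higher in colon in 4 of 5 tested, against 25.6% of all genes. The median was 7.32 (6.66 less the length-quintile median), or 4.88 with genes at 0 in jejunum set to their bound. The low-count filter keeps a gene that is high in 1 group only, so these values cover the tested genes. With only the 2 groups compared, 2 were tested, with 1 called higher in colon and a median of 0.91. Muc13, the abundant one, had 1189 and 1605 CPM in colon D1 and D2 and 500.2, 435, 399 and 407 CPM in jejunum D1 to D4 (log2 difference 1.68 ± 0.24, adjusted p = 0.000227). Muc1 rested on colon D1, with 73.3 and 0.520 CPM in colon D1 and D2 and 0.152, 0.165, 0 and 0 CPM in jejunum D1 to D4, and its call was lost without colon D1 (adjusted p = 0.39). Muc20 and Muc5b were at 0 in jejunum, and without colon D1 the list's count was 2.

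Enteroendocrine hormones are made in a known order along the gut. Of 26 tested, 12 were called higher in colon and 4 higher in jejunum, with a median of 1.63 (1.56 less the length-quintile median). Hormones known from the proximal gut were higher in jejunum. Gip, the glucose-dependent insulinotropic peptide of K cells, had 1.79 and 0 CPM in colon D1 and D2 and 130.4, 81.6, 102 and 58.0 CPM in jejunum D1 to D4 (log2 difference -6.31 ± 0.71, adjusted p = 5.76e-05). Ghrl, ghrelin (-4.02 ± 0.73), Cck, cholecystokinin (-2.52 ± 0.83), and Sst, somatostatin (-2.38 ± 0.74), were lower in colon as well. Cck lost its call without colon D1 (adjusted p = 0.118), colon D2 (adjusted p = 0.12) and jejunum D1 (adjusted p = 0.0658), and Sst without colon D2 (adjusted p = 0.104) and jejunum D1 (adjusted p = 0.0556).

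Hormones known from the distal gut were higher in colon. Beside Insl5, Pyy, the satiety peptide of L cells, had 76.4 and 60.8 CPM in colon D1 and D2 and 2.28, 1.15, 0.969 and 6.57 CPM in jejunum D1 to D4 (log2 difference 4.66 ± 1.40, adjusted p = 0.0179). Gcg, the proglucagon gene, had 158 and 298 CPM in colon D1 and D2 and 68.8, 37.3, 51.1 and 60.8 CPM in jejunum D1 to D4 (2.06 ± 0.55, adjusted p = 0.00953). Granule genes Cpe (3.78 ± 0.50), Scg5 (3.48 ± 0.69) and Chga (2.35 ± 0.51) were also higher. Pyy lost its call without colon D1 (adjusted p = 0.0726), colon D2 (adjusted p = 0.0532) and jejunum D2 (adjusted p = 0.0513), and Gcg without colon D2 (adjusted p = 0.12). The count of 12 fell to 6 without colon D2 and to 7 without jejunum D2.

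The Gip promoter, from RefSeq on GRCm38.p6 (chr11:96024295-96024594, plus strand), is shown as that of the proximal hormone with the largest difference. Capitals mark the 2 matches to AGATAA, the GATA motif, and neither of the other motifs was found.
Gip: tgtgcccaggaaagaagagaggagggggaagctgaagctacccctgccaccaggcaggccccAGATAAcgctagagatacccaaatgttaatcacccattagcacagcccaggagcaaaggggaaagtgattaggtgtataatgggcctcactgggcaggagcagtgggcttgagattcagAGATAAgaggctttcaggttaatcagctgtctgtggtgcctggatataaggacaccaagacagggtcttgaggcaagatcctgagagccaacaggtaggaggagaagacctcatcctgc
The promoter of Guca2a, a gene higher in colon, also held 2 matches to AGATAA. Whether a factor was bound at any of these matches was not tested.

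Tuft cells, chemosensory cells of the epithelium, had 3 of 13 tested markers called higher in colon and 1 higher in jejunum, against 25.6% and 20.3% of all genes, so that the share in colon was near the background. The other 9 of the 22 markers in the table were not tested. The median of those tested was 0.80 (0.86 less the length-quintile median). Dclk1, their best known marker, had 69.0 and 11.4 CPM in colon D1 and D2 and 3.50, 2.97, 4.85 and 3.81 CPM in jejunum D1 to D4 (log2 difference 3.44 ± 0.53, adjusted p = 0.000367). Ptgs1, a prostaglandin synthase, differed by 3.86 ± 0.60. Ltc4s, a leukotriene synthase (1.89 ± 0.61), lost its call without colon D1 (adjusted p = 0.0646), colon D2 (adjusted p = 0.0856), jejunum D1 (adjusted p = 0.0679), jejunum D3 (adjusted p = 0.051) and jejunum D4 (adjusted p = 0.0675). Rgs13, the member higher in jejunum, was at 0 in colon with 2.44, 4.12, 4.12 and 2.54 CPM in jejunum. Without any 1 of colon D1, colon D2, jejunum D3 and jejunum D4, 2 were higher in jejunum.

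Crypt stem cell markers were lower in colon in 12 of 26 tested and higher in 5, with a median of -1.12 (-1.25 less the length-quintile median). Lgr5, the receptor that marks cycling stem cells, had 12.1 and 1.56 CPM in colon D1 and D2 and 10.7, 7.92, 11.4 and 19.5 CPM in jejunum D1 to D4, with overlapping ranges (log2 difference -0.76 ± 0.63, adjusted p = 0.349). Olfm4, a stem cell glycoprotein of the small intestine, had 2.31 and 0 CPM in colon D1 and D2 and 27.3, 24.9, 27.4 and 32.0 CPM in jejunum D1 to D4 (-4.26 ± 1.25), and its call was lost without colon D2 (adjusted p = 0.0926). Smoc2, a stem cell matrix protein, differed by -5.75 ± 0.76. Axin2, a feedback inhibitor and readout of Wnt signalling, had 10.3 and 13.0 CPM in colon D1 and D2 and 75.7, 69.4, 77.5 and 88.6 CPM in jejunum D1 to D4 (-2.76 ± 0.32, adjusted p = 5.23e-05). Ascl2, the stem cell transcription factor, had 8.72 and 1.56 CPM in colon D1 and D2 and 33.0, 17.8, 22.8 and 35.8 CPM in jejunum D1 to D4, a call lost without colon D2 (adjusted p = 0.129), jejunum D1 (adjusted p = 0.0527) and jejunum D4 (adjusted p = 0.0502). Higher in colon were Cd44, a hyaluronan receptor of crypt cells, with 387 and 289 CPM in colon D1 and D2 and 34.9, 37.1, 39.0 and 39.2 CPM in jejunum D1 to D4 (3.17 ± 0.22), Prom1, a membrane glycoprotein (1.90 ± 0.17), and Tnfrsf19, a receptor of the tumour necrosis factor family (5.79 ± 1.34).

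Genes of fetal-like or regenerating epithelium were nearly all higher in colon. Of 24 tested, 23 were called higher in colon and 0 higher in jejunum, with a median of 5.71 (6.03 less the length-quintile median). This programme, of annexins, Ly6 proteins and targets of the YAP coactivators, is known from fetal gut cultures and wound repair. Anxa1, an annexin, had 122 and 145 CPM in colon D1 and D2 and 1.37, 4.29, 3.39 and 3.6 CPM in jejunum D1 to D4 (log2 difference 5.40 ± 0.32, adjusted p = 7.31e-07). Anxa3 had 222 and 204 CPM in colon D1 and D2 and 11.1, 12.9, 8.24 and 9.32 CPM in jejunum D1 to D4 (4.34 ± 0.36), Anxa8 68.5 and 43.1 CPM in colon D1 and D2 and 0, 0.165, 0 and 0 CPM in jejunum D1 to D4 (9.59 ± 0.57) and Basp1, a membrane-associated protein, 473 and 185 CPM in colon D1 and D2 and 0.457, 1.32, 1.21 and 2.12 CPM in jejunum D1 to D4 (8.03 ± 0.56).

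Ly6a (Sca-1) had 672 and 787 CPM in colon D1 and D2 and 7.77, 5.11, 2.18 and 4.03 CPM in jejunum D1 to D4 (7.21 ± 0.61) and Clu, clusterin, 2362 and 319 CPM in colon D1 and D2 and 0.914, 8.25, 6.78 and 10.4 CPM in jejunum D1 to D4 (7.69 ± 0.82). Clu was several times higher in colon D1 than in D2. Areg, amphiregulin, was the tested member not called (-0.22 ± 0.66). When any 1 library was left out, 22 or 23 members were called. Ethanol tissue had 11 of 21 higher in colon and 2 higher in jejunum, with a median of 1.66, and 14 of 25 had a higher segment difference in organoids than in tissue (23.7% of all genes) and 0 a lower one (16.9% of all genes). The list also holds Krt7 and Cd14, named with other lists here.

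Cell cycle genes were lower in colon, 26 of 40 tested called and 0 higher, with a median of -1.76 (-1.84 less the length-quintile median). Ccnb1, the mitotic cyclin B1, had 9.49 and 13.5 CPM in colon D1 and D2 and 54.4, 47.2, 48.7 and 57.6 CPM in jejunum D1 to D4 (log2 difference -2.20 ± 0.28, adjusted p = 7.95e-05). The replication licensing genes Mcm5 (-2.86 ± 0.41), Mcm6 (-1.80 ± 0.27) and Cdt1 (-1.87 ± 0.26) were lower too. Mki67, the proliferation marker Ki-67, had 36.7 and 30.1 CPM in colon D1 and D2 and 76.6, 119, 119 and 85.4 CPM in jejunum D1 to D4 (-1.57 ± 0.46), and its call was lost without colon D1 (adjusted p = 0.0647) and colon D2 (adjusted p = 0.105). The count of 26 fell to 16 without colon D1 and to 16 without colon D2. In tissue 6 of 40 were higher in colon and 3 higher in jejunum.

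Fatty acid oxidation was lower in colon in 13 of 28 tested genes and higher in 5, against 20.3% and 25.6% of all genes. The list median was -0.66 (-0.64 less the length-quintile median). The short-chain enzyme Acads had 568 and 453 CPM in colon D1 and D2 and 125, 95.8, 107 and 124 CPM in jejunum D1 to D4 and was higher in colon (log2 difference 2.18 ± 0.19, adjusted p = 6.8e-06), as were Oxct1, which uses ketone bodies (1.28 ± 0.21), and Slc25a20, the carnitine carrier (1.11 ± 0.24). Etfa, an electron carrier (-2.76 ± 0.29), the thiolases Hadhb (-1.68 ± 0.22) and Acat1 (-2.34 ± 0.33), and Cpt2, which imports it (-2.02 ± 0.30), were lower.

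Tight junction genes were higher in colon in 13 of 27 tested and lower in 3, with a median of 0.62, or 0.38 less the length-quintile median. These proteins seal the space between epithelial cells, and the title of the series names permeability of the colon as its subject. Cldn4, a sealing claudin, had 1269.9 and 1225 CPM in colon D1 and D2 and 134, 86.6, 67.1 and 131 CPM in jejunum D1 to D4 (log2 difference 3.57 ± 0.38, adjusted p = 2.64e-05). Cldn7, which lies mainly on the lateral membrane, had 2312 and 1919.9 CPM in colon D1 and D2 and 596, 582, 572 and 657 CPM in jejunum D1 to D4 (1.81 ± 0.15). Cldn3, another sealing claudin, had 507 and 834 CPM in colon D1 and D2 and 408, 350.5, 372 and 368 CPM in jejunum D1 to D4, and its call was lost without colon D2 (adjusted p = 0.207).

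The pore-forming claudins did not follow. Cldn15, the sodium pore of the small intestine, had 46.2 and 33.3 CPM in colon D1 and D2 and 581, 512, 509.8 and 420.3 CPM in jejunum D1 to D4 (log2 difference -3.66 ± 0.30, adjusted p = 5.11e-06). Cldn2, a cation and water pore, had 138 and 34.3 CPM in colon D1 and D2 and 174, 112, 120.4 and 116 CPM in jejunum D1 to D4 and Cldn8, a claudin of the distal colon, 1.54 and 0 CPM in colon D1 and D2 and 2.59, 1.81, 0.969 and 0.636 CPM in jejunum D1 to D4, both with overlapping ranges and not called (adjusted p = 0.288 and 0.57). Cgnl1, paracingulin, was nearly absent from jejunum, with 199.99 and 233 CPM in colon D1 and D2 and 3.35, 2.14, 1.70 and 1.48 CPM in jejunum D1 to D4 (6.58 ± 0.42, adjusted p = 9.28e-07).

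Among the scaffolds, Tjp1 (ZO-1) had 135 and 136 CPM in colon D1 and D2 and 36.9, 49.6, 41.7 and 33.7 CPM in jejunum D1 to D4 (1.74 ± 0.39, adjusted p = 0.00356). Tjp3 (-1.81 ± 0.20) and the claudin relative Cldn25 (-1.08 ± 0.24) were lower in colon. Ocln, occludin, had 67.4 and 84.7 CPM in colon D1 and D2 and 53.0, 49.1, 50.2 and 44.7 CPM in jejunum D1 to D4 (0.62 ± 0.20), and its call was lost without colon D2 (adjusted p = 0.206), jejunum D2 (adjusted p = 0.0545), jejunum D3 (adjusted p = 0.052) and jejunum D4 (adjusted p = 0.0803). The count of 13 was 9 without colon D2.

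Adherens junction and desmosome genes moved both ways, 8 of 18 tested higher in colon and 5 lower. Over all genes the shares were 25.6% and 20.3%. The list median was 0.42 (0.34 less the length-quintile median, over the 14 members placed in a quintile). Pkp3, a plakophilin, had 442 and 298 CPM in colon D1 and D2 and 55.6, 60.0, 64.9 and 55.3 CPM in jejunum D1 to D4 (log2 difference 2.65 ± 0.20), Jup, plakoglobin, differed by 2.52 ± 0.28, Dsp, desmoplakin, by 2.09 ± 0.27 and Cdh1, E-cadherin, by 1.67 ± 0.19. The plakophilins Pkp1 (-3.18 ± 0.37) and Pkp2 (-1.19 ± 0.24), the desmosomal protein Perp (-0.90 ± 0.17) and the nectin Pvrl1 (-2.03 ± 0.60) were lower. Without either colon library the number lower fell from 5 to 3. Pvrl1 lost its call without colon D1 (adjusted p = 0.086) and colon D2 (adjusted p = 0.0602).

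Of 23 keratin and brush border genes, 9 were higher in colon and 0 higher in jejunum, with a median of 0.76 (0.82 less the length-quintile median). Plec, plectin, had 368 and 425 CPM in colon D1 and D2 and 44.5, 44.5, 50.4 and 42.2 CPM in jejunum D1 to D4 (log2 difference 3.13 ± 0.21, adjusted p = 1.43e-06). Cdhr5, a cadherin between microvilli (2.40 ± 0.21), Ezr, ezrin (2.12 ± 0.24), and Krt7, a keratin of simple epithelia (1.84 ± 0.19), were higher too. Vil1, villin of the microvillus core, had overlapping ranges, with 205 and 379.8 CPM in colon D1 and D2 and 288, 270.2, 247 and 195 CPM in jejunum D1 to D4 (0.22 ± 0.28, adjusted p = 0.547).

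Surface defence genes moved both ways, 11 of 31 tested higher in colon and 12 higher in jejunum, against 25.6% and 20.3% of all genes. Their median was -0.48, but 0.08 less the length-quintile median. Ccl25, the chemokine that draws lymphocytes to the small intestine, had 3.59 and 1.04 CPM in colon D1 and D2 and 358, 432, 416 and 293 CPM in jejunum D1 to D4 (log2 difference -7.14 ± 0.41, adjusted p = 5.91e-07). Btnl2, a butyrophilin-like protein at 0 in colon (at least 20.1-fold), and Ccl28, a mucosal chemokine (-2.59 ± 0.45), were lower in colon as well. Fut2, the fucosyltransferase of surface glycans, had 32.3 and 47.8 CPM in colon D1 and D2 and 0.914, 0.660, 0.969 and 0 CPM in jejunum D1 to D4 and was higher in colon (5.90 ± 0.59, adjusted p = 1.68e-05). Lcn2, an iron-scavenging lipocalin, had 86.4 and 11.4 CPM in colon D1 and D2 and 0.152, 0.330, 0 and 0 CPM in jejunum D1 to D4 (8.24 ± 1.08), Cxcl5, a neutrophil chemokine, differed by 8.02 ± 1.01 and Cd14, the endotoxin co-receptor, by 3.68 ± 0.41. Without colon D1 the counts were 7 higher in colon and 7 higher in jejunum, and without colon D2 7 and 8.

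Macrophage, T cell, fibroblast, smooth muscle, neuron and glia markers had higher sums in colon organoids, while the ranges of the endothelial, B cell, adipocyte and red cell sums overlapped. The 13 macrophage and dendritic markers in the table summed to 688 and 262 CPM in colon and 41.9 to 58.9 CPM in jejunum. All 7 tested members were called higher in colon, against 25.6% of all genes. The low-count filter keeps a gene that is high in 1 group only, so this count covers the tested members. Without that filter 12 were tested, with 6 called higher in colon and 1 higher in jejunum. In control organoids the sums were 62.7 to 128 CPM in colon and 42.4 to 66.8 CPM in jejunum. Csf1r and Tyrobp were named after their values were seen. Csf1r, the macrophage growth factor receptor, had 256 and 50.9 CPM in colon D1 and D2 and 0.152, 0.165, 0.242 and 0 CPM in jejunum D1 to D4, and Tyrobp, an immune adaptor, 37.4 and 20.8 CPM in colon D1 and D2 and 0, 0, 0 and 0 CPM in jejunum D1 to D4. The complement genes C1qb and C1qc, with Mrc1 and Itgax, were at 0 in both colon libraries. Cd74, the invariant chain, had 15.1 and 1.56 CPM in colon D1 and D2 and 0, 0, 0.242 and 0 CPM in jejunum D1 to D4 (log2 difference 6.83 ± 1.38), and its call was lost without colon D1 (adjusted p = 0.0904). Without jejunum D4 the number of macrophage markers called higher in colon fell from 7 to 4, and 1 was higher in jejunum. Without jejunum D3 these counts were 6 and 1. The part of these cells in the list results was not tested.

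The T and natural killer cell markers summed to 18.2 and 18.2 CPM in colon and at most 0.97 CPM in jejunum. Among them Cd3e, Cd8a, Cd8b1, Gzma and Nkg7 were at 0 in all 6 libraries. Ptprc, which is not specific to T cells, is part of this sum and was the only gene of the list tested. Ptprc, the common leukocyte antigen, also picked after its values were seen, had 15.6 and 7.27 CPM in colon D1 and D2 and 0.305, 0, 0 and 0.212 CPM in jejunum D1 to D4. Fibroblast and matrix markers summed to 56.1 and 138 CPM against at most 3.88 CPM, with Col6a1, Col6a2, Lum and Pdgfrb at 0 in colon. Neuron and glia markers summed to 22.8 and 65.5 CPM against at most 1.98 CPM. Sums were 16.9 and 22.9 CPM against 7.59 to 8.24 CPM for smooth muscle. Endothelial markers summed to 6.15 and 8.83 CPM in colon and 8.00 to 19.0 CPM in jejunum, adipocyte markers to 1.79 and 3.64 CPM against 3.6 to 11.3 CPM, and B and plasma cell markers to 2.56 and 3.64 CPM against 2.14 to 3.39 CPM. Red cell markers stayed under 1 CPM in every library. The sum of the pancreatic acinar markers was higher in jejunum, 78.0 to 171 CPM against 11.5 and 33.3 CPM. Of these 10 markers 7, Prss2, Cela2a, Cela3b, Cpa1, Cpb1, Pnlip and Amy2b, were at 0 in all jejunum libraries. Of 3 tested, 1 was called higher in jejunum.

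Ethanol tissue gave the same contrast in 8 other libraries. Of 13434 genes tested there, 6462 (48.1%) were called, 3490 (26.0%) higher in colon and 2972 (22.1%) higher in jejunum. Within these libraries Rn45s took 18.3 to 43.0% of counts in colon and 53.4 to 80.8% in jejunum, and smooth muscle markers summed to 1734 to 8920 CPM and 171 to 1167 CPM. Their part in the tissue differences was not tested. Over the 11924 genes tested in both, 2747 were called in both, which is 51.9% of the organoid calls and 48% of the tissue calls. Of these, 1615 (58.8%) had the same direction and 1132 the opposite one. Across genes, which are not independent replicates, the log2 differences had a Pearson correlation of 0.31 and a Spearman correlation of 0.15, given as a description. The difference between the contrasts was called in 6002 of 14785 genes (40.6%).

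**Figure D4:**
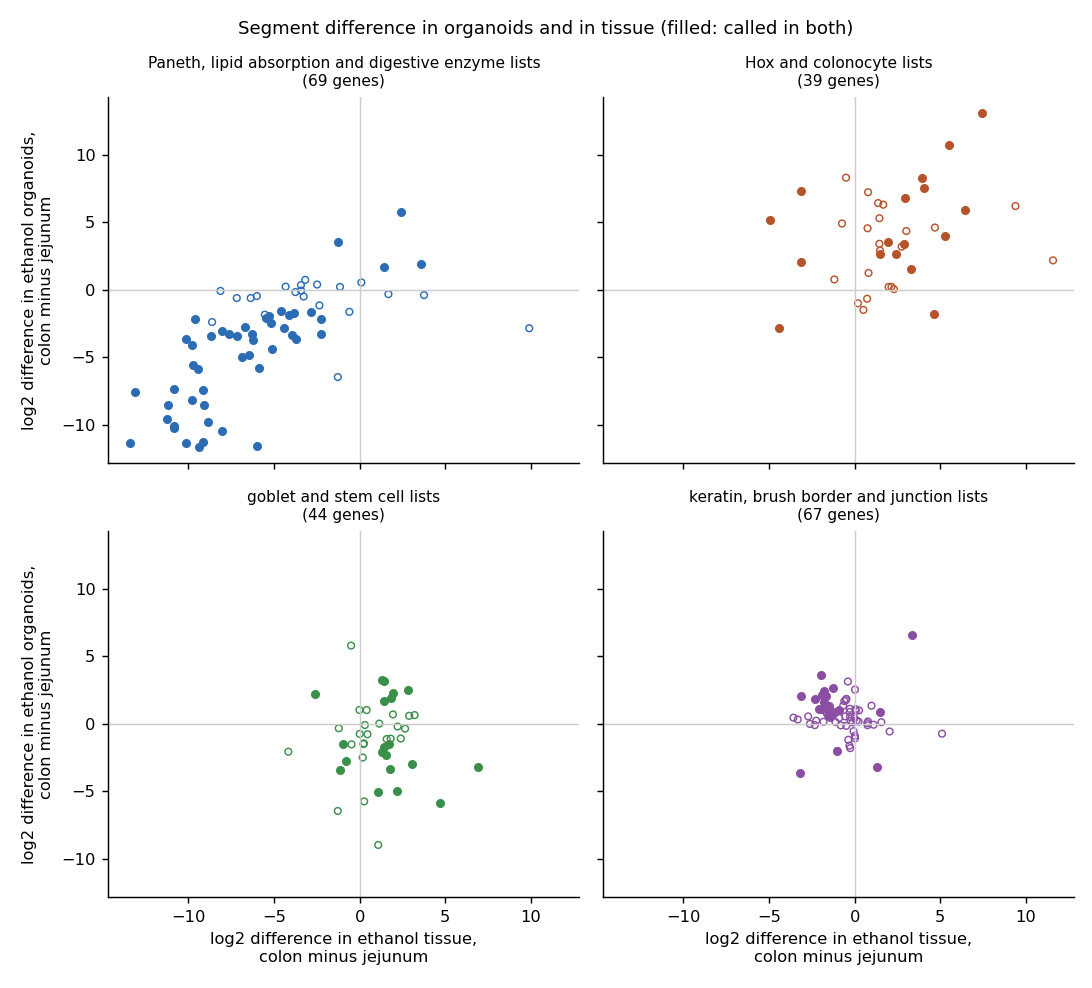
Log2 difference between colon and jejunum in ethanol organoids against that in ethanol tissue, for genes of 4 groups of lists tested in both. Filled points were called in both. Genes of the Paneth, fat absorption and digestive enzyme lists lie mostly below 0 on both axes, goblet and stem cell genes spread over all quadrants, and most filled keratin, brush border and junction genes are higher in colon in organoids and higher in jejunum in tissue.

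Genes of small intestinal function mostly kept their direction. In fat absorption all 21 genes called in both had the same sign, in the Paneth list all 17, in the digestive enzymes 10 of 11 and in the nutrient transporters 11 of 14. Slc5a12, a lactate transporter, was among the transporters that turned, higher in colon organoids and -8.71 ± 0.50 in tissue (adjusted p of the difference = 6.29e-11). The size was smaller in culture for fat absorption, with a median of -2.14 in organoids and -4.56 in tissue, and for digestive enzymes, with -2.13 and -5.87. The test of the difference called 16 of 29 fat absorption genes and 12 of 21 enzymes as less negative in organoids, against 23.7% of all genes. Apoa1 differed by -3.67 ± 0.41 in organoids and -10.11 ± 0.68 in tissue (difference 6.49 ± 0.64, adjusted p = 2.12e-08).

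Other groups turned. Of 9 goblet genes called in both, 3 had the same direction. Spink4 was -5.08 ± 0.33 in organoids and 1.08 ± 0.35 in tissue (difference -6.12 ± 0.57, adjusted p = 7.75e-09), and Agr2 -3.35 ± 0.34 and 1.79 ± 0.42 (difference -5.09 ± 0.65, adjusted p = 8.67e-07). Zg16 turned the other way, from -2.59 ± 0.69 in tissue to 2.22 ± 0.43 in organoids (adjusted p of the difference = 0.000198). None of the 6 keratin and brush border genes called in both kept its sign, and 3 of 9 tight junction genes did. Cldn7 was 1.81 ± 0.15 in organoids and -2.31 ± 0.32 in tissue (difference 4.17 ± 0.38, adjusted p = 5.09e-09). Cldn4 was 3.57 ± 0.38 and -1.94 ± 0.75 (adjusted p of the difference = 6.38e-05). Cldn15 kept its direction, at -3.66 ± 0.30 and -3.22 ± 0.29 (adjusted p of the difference = 0.437). Aqp8, at 91.7, 41.8, 9.30 and 22.5 CPM in colon tissue, and Cldn8, at 26.2, 41.0, 19.4 and 15.0 CPM, were higher in colon tissue. Aqp8 was at 0 in all 4 jejunum tissue libraries (adjusted p = 0.000431), and Cldn8 differed by 5.10 ± 0.66 in tissue (adjusted p of the difference from organoids = 0.000529).

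Control organoids tested whether the segment difference was the same without ethanol in the mice. The difference was called in 1218 of 12922 genes (9.43%), 930 (7.20%) more positive with ethanol and 288 (2.23%) more negative. This count rests on the 2 control colon libraries, whose biological coefficient of variation was 1.13. It ran from 721 to 4810 when 1 of the 12 libraries was left out, highest without control colon D1, and was 0 with limma-voom and a spread per group. At an unadjusted p under 0.05 the quasi-likelihood test gave 3194 genes.

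**Figure D5:**
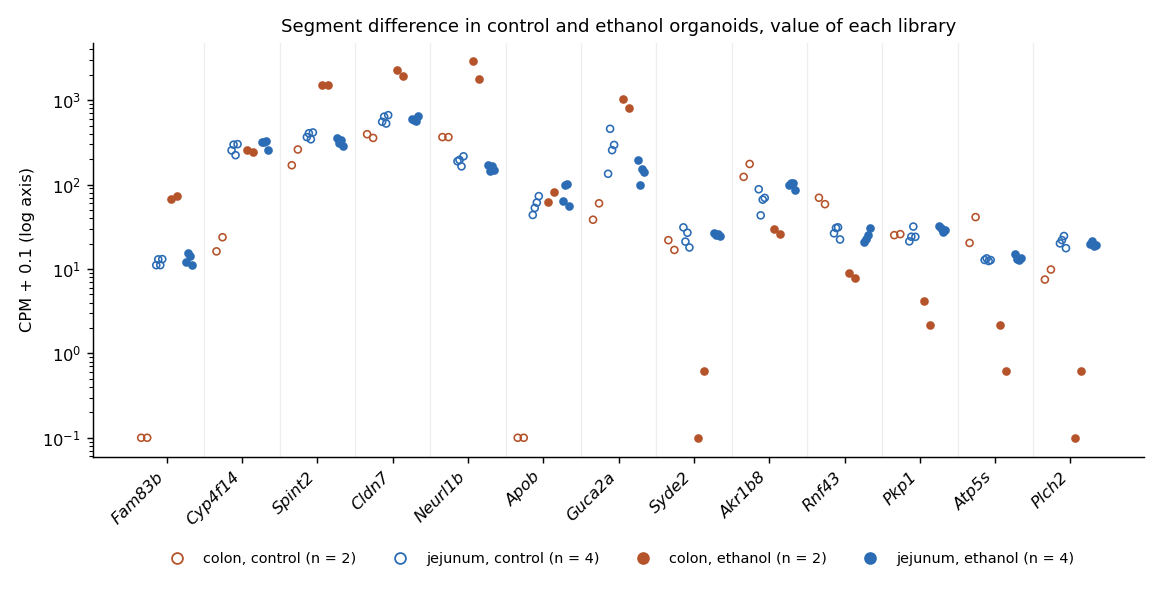
CPM + 0.1 on a log axis in each organoid library for 13 genes, open symbols for control and filled symbols for ethanol, colon in red and jejunum in blue. In the first 7 genes the colon libraries lie higher under ethanol than under control, and in the last 6 lower, while the jejunum libraries of both treatments overlap.

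The genes with the smallest p, 6 in each direction, differed between treatments in the colon libraries, while the ranges of control and ethanol jejunum overlapped in each. Fam83b, a gene linked to growth factor signalling, had 67.7 and 72.2 CPM in ethanol colon and was at 0 in both control colon libraries, against 11, 12.9, 11 and 13.0 CPM in control jejunum (adjusted p = 0.000297). Spint2, a protease inhibitor of epithelia, had 1526 and 1509 CPM in ethanol and 169 and 261 CPM in control colon (difference 3.06 ± 0.27). Cldn7 had 395 and 357 CPM in control colon and 555, 639, 529 and 665 CPM in control jejunum (difference 2.48 ± 0.23, adjusted p = 0.000439). Neurl1b, a ubiquitin ligase of Notch ligands, differed by 2.97 ± 0.28, and Cyp4f14, a cytochrome P450, by 3.51 ± 0.30.

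In the other direction, Syde2, a regulator of small GTPases, had 0 and 0.520 CPM in ethanol and 21.9 and 16.7 CPM in control colon (difference -6.67 ± 0.80, adjusted p = 0.00098). Rnf43, the ubiquitin ligase that removes Wnt receptors, had 8.97 and 7.79 CPM and 69.8 and 58.5 CPM (difference -2.75 ± 0.39). Akr1b8, an aldo-keto reductase (-2.97 ± 0.38), Pkp1 (-3.19 ± 0.45), Atp5s, a factor of the mitochondrial ATP synthase (-4.44 ± 0.64), and Plch2, a phospholipase C (-5.28 ± 0.84), were the rest.

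Several genes described for ethanol organoids had another segment difference in control organoids. Guca2a had 38.3 and 59.9 CPM in control colon and 134, 458, 256 and 295 CPM in control jejunum, so that it was not higher in colon there (difference between treatments 5.21 ± 0.61, adjusted p = 0.000926). Apob was at 0 in both control colon libraries against 43.6, 52.8, 61.1 and 72.9 CPM in control jejunum (adjusted p = 0.000441). Cldn15 had 0.965 and 3.48 CPM in control colon (4.48 ± 0.49, adjusted p = 0.00063). Cdx1 (2.92 ± 0.49, adjusted p = 0.00438) and Klf4 (3.01 ± 0.59, adjusted p = 0.00972) were more positive with ethanol, and Anxa1 was less (-2.64 ± 0.49, adjusted p = 0.00741). For Car1 (1.70 ± 0.85, adjusted p = 0.252), Hoxb9 (adjusted p = 0.588), Fabp1 (2.23 ± 3.23, adjusted p = 0.762) and Adh1 (-2.25 ± 1.01, adjusted p = 0.189) no difference between treatments was called, which does not show that they were alike. Over all genes 9.43% differed between treatments. By list, 1 of 20 ethanol and aldehyde genes, 1 of 23 Paneth markers and 3 of 24 fetal or regenerative genes did, which is near that share. Of 58 xenobiotic genes 21 did, 19 more positive and 2 more negative. This list was not alone above that share. Of 28 segment transcription factors 9 were more positive and 2 more negative, and of 30 salt and water transport genes 8 and 1. Of 23 keratin and brush border genes the counts were 6 and 1. More positive, with 0 more negative, were 4 of 9 bile acid genes, 6 of 20 goblet genes and 6 of 23 colonocyte genes.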

How the data were processed

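Gene counts of 27 QuantSeq libraries were used as deposited. The authors trimmed reads with Trimmomatic 0.32, aligned them with BWA to mm10 and counted reads per gene with HTSeq, with edgeR and limma also named, per the submitters' processing notes. The authors also deposited a normalized table whose log-like scale is not stated, treated as a score and used only as an alternative. No other columns of per-sample values were found.

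The 12 organoid libraries were fitted together with edgeR 4.0.16 (R 4.3.3) after its low-count filter, with TMM scaling and the robust quasi-likelihood test, the 15 tissue libraries in a fit of their own, and all 27 libraries for the test of organoid against tissue. The fits used limma 3.58.1 and DESeq2 1.42.0 as alternatives. Only the edgeR comparison of ethanol organoids was run on simulated counts, drawn with the same spread in every group. The real biological coefficients of variation ran from 0.147 in ethanol jejunum to 1.13 in control colon organoids. That simulation therefore does not cover unequal spread, the tests of a difference between comparisons, the tissue fit or the alternatives. P-values were Benjamini-Hochberg adjusted over all genes tested, and genes under 0.05 are called. CPM are counts scaled to 1000000 per library after TMM. Total counts per library ran from 2601537 to 6500472 in the 6 libraries compared, and their number limits the precision. Replicates were checked for duplicates, and none agreed within sampling noise.

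Lists and members were chosen with earlier results of these data known. Genes are named by rule: the 8 highest and 8 lowest folds among called genes with ranges apart and a group mean of at least 20 CPM, up to 4 called genes per direction in each of 24 lists, a fixed set of segment markers, the tested Hox genes, and the 6 smallest p per direction between treatments. Some genes that this rule names are not reported here. Aldh2, Areg, Clu, Csf1r, Epcam, Ly6a, Lypd8, Ptprc, Tyrobp and Vil1 were named outside that rule, after their values were seen. Promoters and positions come from RefSeq and GENCODE vM21 tables of GRCm38, where 94.2% of tested symbols were found. Control tissue entered only the shared estimate of spread.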

Additional observations from a re-analysis of the deposited data

Results flagged for a closer look

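Several named genes had a jejunum library that stood apart from the other 3 by a gap past the 95% limit of Dixon's test for 4 samples. The gap as a share of the range is given after each gene. Jejunum D1 stood apart as the highest of its group in Ang4 (0.872), Cldn2 (0.870), Defa17 (0.899), Defa3 (0.959), Ezr (0.864), Lyz1 (0.853), Lyz2 (0.855) and Slc12a2 (0.861). Jejunum D3 stood apart as the highest of its group in Scg5 (0.890). Jejunum D4 stood apart as the highest of its group in Smoc2 (0.867). Jejunum D4 stood apart as the lowest of its group in Cyp4f14 (0.920), Krt7 (0.947), Lypd8 (0.842) and Npc1l1 (0.939). Of 171 genes looked at, chance flags about 1 in 20. The 2 colon libraries were too few for such a check.

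The segment difference differed between ethanol and control organoids in 1218 genes by edgeR's interaction test at an adjusted p under 0.05. Values are ethanol minus control on the log2 scale. Named genes with a more positive difference with ethanol were Abcb1a (1.96), Acads (2.07), Agr2 (1.59), Apoa1 (2.68), Apob (10.91), Ccl25 (3.55), Ccl28 (6.77), Cdhr5 (3.25) and Cdx1 (2.92). Others with a more positive difference were Cdx2 (0.94), Cldn15 (4.48), Cldn3 (1.62), Cldn7 (2.48), Cyp2c65 (2.40), Cyp4f14 (3.51), Enpep (6.70), Epcam (1.73) and Fam83b (11.23). Others with a more positive difference were Guca2a (5.21), Guca2b (4.03), Hnf4a (1.19), Hsd11b2 (7.08), Kcnma1 (9.20), Klf4 (3.01), Ltc4s (4.65), Muc13 (3.45) and Neurl1b (2.97). Others with a more positive difference were Rbp7 (6.07), Scg5 (3.82), Sis (6.06), Slc10a2 (5.89), Slc1a1 (6.12), Slc51b (10.67) and Spint2 (3.06). Those with a more negative one were Akr1b8 (-2.97), Anxa1 (-2.64), Aqp4 (-4.51), Atp5s (-4.44), Axin2 (-1.51), Gata4 (-3.06), Krt7 (-1.33), Mcm5 (-2.31), Pkp1 (-3.19), Plch2 (-5.28), Rnf43 (-2.75) and Syde2 (-6.67). A group was at 0 for Apob, Ccl28, Fam83b, Hsd11b2, Kcnma1, Rbp7, Slc1a1 and Slc51b, so that the fitted value depends on the prior count and is no bound.

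The segment difference differed between ethanol organoids and ethanol tissue in 6002 genes by the same test. Values are organoid minus tissue on the log2 scale, for named genes whose difference had opposite signs in both. More positive in organoids were Aldh1a3 (10.78), Cd74 (11.55), Cdhr5 (4.24), Cldn4 (5.56), Cldn7 (4.17), Dsp (3.79), Epcam (2.02), Ezr (4.08) and Hoxc8 (10.24). Also more positive were Maf (6.77), Mep1a (4.89), Ms4a6b (13.74), Muc13 (4.21), Ocln (2.22), Pkp3 (3.98), Rdh10 (3.16), Slc5a12 (17.12) and Spint2 (3.26). Also more positive were  and Zg16 (4.85). More negative in organoids were Acat1 (-3.35), Agr2 (-5.09), Akr1b8 (-6.51), Aqp4 (-10.54), Ascl2 (-3.77), Cdx1 (-3.87), Etfa (-3.51), Hsd11b2 (-6.36) and Pkp1 (-4.44). Also more negative were Plch2 (-8.13), Slc12a2 (-3.07), Spink4 (-6.12), Sst (-3.42) and Ugt2b35 (-4.86). A group was at 0 for Ms4a6b and Slc5a12, with the same limit.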

How the results depend on the processing

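The colon minus jejunum calls in ethanol organoids numbered 5928, and 6111 with DESeq2, 6177 with limma-voom, 5320 with a spread per group and 7082 with only the 2 groups compared. They numbered 3208 against a 2-fold difference and 3349 on the deposited normalized table, where fewer genes could be tested. Leaving out 1 library gave 4163 to 5061. In tissue 6462 calls became 2705 against a 2-fold difference and 3519 on the normalized table. The 6002 genes differing between organoids and tissue became 2907 on that table. The 1218 genes differing between treatments became 2148 with DESeq2, 0 with a spread per group and 685 on the normalized table, and ran from 721 to 4810 when 1 library was left out. The cause was not tested.

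With the replicate block, 3711 genes were called in ethanol organoids and 416 between treatments. Same-numbered colon and jejunum organoids correlated at 0.05 and 0.06 in their deviations from the group means, and the 2 colon deviations mirror each other, so whether the numbers mark 1 mouse was not tested and the block is used here only. Under it hormone genes higher in colon fell from 12 to 6.

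Signs reversed only in genes that were not called or were at or near 0 in a group. These were Fabp6 (-0.65) and Hoxc9 (0.95) with limma-voom, Fabp6 (-0.59) and Hoxc9 (0.95) with limma-voom with a spread per group and Hoxc9 (0.0217) with the replicate block. When 1 library was left out, values ran for Aqp8 from -0.18 to 3.12, Fabp6 from -7.31 to 1.62, Cldn2 from -1.99 to 0.047, Hoxa3 from -0.18 to 0.47, Hoxb2 from 0 to 6.14, Aldh2 from -0.27 to 0.75, Areg from -0.91 to 0.23 and Vil1 from -0.32 to 0.54.

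Of 193 named genes called, 163 kept the call without any 1 of the 6 libraries and 30 lost it without at least 1. With 2 colon libraries of 4595625 and 2601537 counts, of which 38.1 and 48.3% were Rn45s, a group at 0 allows up to 0.515 CPM in colon (3 counts over the group), and low genes differing less than that were not detectable. Floors cover counting error only, while the ± values are standard errors of the fit and include its estimate of the spread between libraries.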
